A study of Mus musculus with 9 samples.

Results

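The calcium exchangers and pumps of the cell are described here: the sodium-calcium exchangers Slc8a1, Slc8a2 and Slc8a3, the pumps of the endoplasmic reticulum Atp2a1, Atp2a2 and Atp2a3, and the pumps of the plasma membrane Atp2b1, Atp2b2, Atp2b3 and Atp2b4. Array features were taken as members when the platform annotation gave one of these 10 gene symbols. This held for 12 of 22393 features on 6 arrays and for 24 of 43790 features on the other 3. The features covered 9 of the 10 genes on both platforms, among 16504 named genes on the 6 arrays and 19087 on the 3. No feature carried the symbol Atp2b4, which was not analysed here.

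A cell keeps calcium in its cytosol far below the level outside, and these genes code for the transporters that bring it back down after a signal. Sodium-calcium exchangers use the inward sodium gradient to carry calcium out of the cell, SERCA pumps spend ATP to refill the endoplasmic reticulum, and plasma membrane pumps spend ATP to push calcium out. In neurons they end the calcium transients that voltage-gated channels such as CaV1.2 start.

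Two-colour Agilent arrays measured RNA of mouse Neuro2A cells, a cultured neuroblastoma line, to find genes controlled by CCAT, the C-terminal fragment of CaV1.2. FL cells were transfected with a PA1 plasmid that encodes the channel's last 503 amino acids, and DTA cells with one that encodes the last 280, a form made without the activation domain and described in the labels as still weakly active. FL was set against untransfected cells on 3 arrays and DTA against untransfected cells on 3 arrays of the same platform, while FL was set against cells given empty PA1 on 3 arrays of another platform. Transfection was transient, GFP-positive cells were sorted 24 hours later, and untransfected cells went through the sorter too. The design text states that the plasmid alone raised some genes, so the comparisons with untransfected cells hold the effect of transfection together with that of CCAT. The FL and DTA comparisons share this kind of control, so their values are set side by side and their likeness is no separate result.

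Values are log2 ratios, positive when higher in the CCAT channel. This order was not stated and is only likely: 5 interferon genes had a median of 3.96 with FL and 3.59 with DTA against untransfected cells. With FL against empty vector their median was 0.41, but both channels there hold RNA of cells given plasmid. That value gives no check of the order, which was taken to be the same on those arrays. Every direction turns if the order runs the other way. The label fields give Cy3 for CCAT RNA and Cy5 for control RNA on all 9 arrays, with no dye swap, so a dye effect of a gene cannot be told apart from its ratio. A ratio gives no expression level, so neither the abundance of these genes nor the identity of the line could be checked by level, and fewer expressing cells cannot be told apart from less RNA per cell. The labels do not say that arrays came from separate cultures, so p-values measure only how far these arrays differ, and that spread may be technical. For DTA replicate 3 the treatment text gives the full-length construct, against its title and source. As an example, its ratio for the gene Bsg was 0.46, beside 0.47 and 0.48 on the other DTA arrays and 0.94 to 0.98 with FL. For replicate 1 of FL against empty vector one text gives the opposite dye, so its labels conflict on the orientation. Both arrays were kept, and values without them are given where a call was lost. Over named genes, Pearson's r between arrays of one group was 0.84 to 0.90 with FL and 0.92 to 0.95 with DTA. It was 0.81 to 0.83 with FL against empty vector, so replicate 1 ran in the same direction as the other arrays there. The median SD of a gene was 0.071 with FL and 0.041 with DTA, groups that share one estimate of spread. Deposited ratios capped at exactly -2 occurred only with FL, on 24, 104 and 158 features of replicates 1, 2 and 3.

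Changes of the exchangers and pumps were small, and none reached 2-fold. Atp2a1, the SERCA pump best known from fast skeletal muscle, was lower in the CCAT channel, Cy3 by the label fields, on all 9 arrays. How many of all genes kept one sign on all 9 arrays was not counted. Atp2b1, the most widely expressed plasma membrane pump, was higher in FL and DTA cells than in untransfected cells, by 1.33-fold and 1.28-fold, through 1 of its 2 features. Atp2a3, a SERCA pump known from blood and epithelial cells, was 1.35-fold lower in FL cells than in empty-vector cells. Slc8a1 was lower by 1.13-fold in FL cells than in empty-vector cells, through 3 of its 8 features.

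A gene was called when its limma p-value, adjusted by Benjamini-Hochberg over all named genes of the platform, was under 0.05. With FL against untransfected cells 3 of 9 members were called, 1 higher and 2 lower, where 69.8% of all genes were called, 34.7% higher and 35.1% lower. DTA against untransfected cells gave 4 members, 2 higher and 2 lower, where 71.8% of all genes were called, 35.7% higher and 36.1% lower. For FL against empty vector 7 of 9 were called, 2 higher and 5 lower, where 63.4% of all genes were called, 30.6% higher and 32.8% lower. Most genes thus passed this test, and a call alone set no member apart. The median absolute log2 ratio of the members was 0.16 with FL, 0.11 with DTA and 0.12 with FL against empty vector, beside 0.20, 0.22 and 0.14 over all genes. Changes of at least 2-fold were called in 1.62% of all genes with FL, 2.33% with DTA, 0.418% for FL minus DTA and 0.262% with FL against empty vector. Of the single features with one gene symbol, 69.4% were called with FL (35.0% higher, 34.4% lower), 71.7% with DTA (36.0% higher, 35.7% lower) and 64.1% with FL against empty vector (33.0% higher, 31.1% lower). Member features called were 1 higher and 3 lower of 12 with FL, 2 higher and 3 lower of 12 with DTA, and 5 higher and 11 lower of 24 with FL against empty vector.

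**Figure D1:**
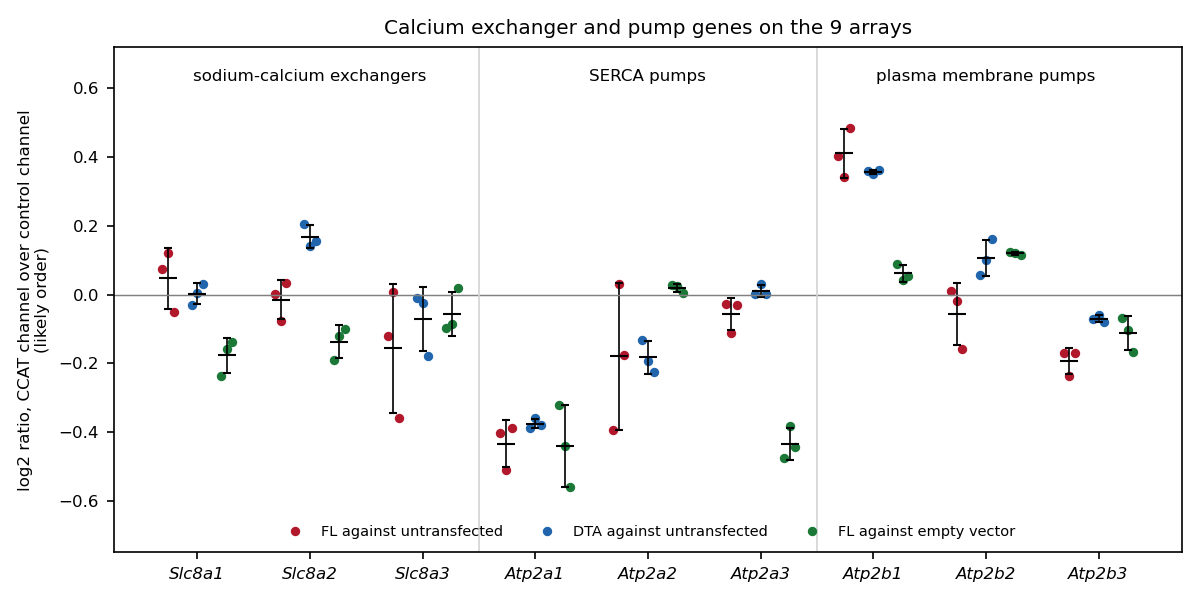
Log2 ratio of the CCAT channel over the control channel for 9 calcium exchanger and pump genes, one point per array, with the mean and SD of 3 arrays as bars. Red points are FL against untransfected cells, blue points DTA against untransfected cells and green points FL against empty vector. Atp2a1 lies below 0 on every array, Atp2b1 is highest on the red and blue arrays, and Atp2a3 lies between -0.48 and -0.38 in the green group.

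Promoter letters are shown for Slc8a1 and for the members called in the same direction in all 3 comparisons with control RNA. These were Atp2a1, Atp2b1 and Atp2b3, the last with no window in the table used. The share of all genes that meet this rule was not counted, so the rule sets no member apart. Against empty vector the calls of Atp2b1 and Atp2b3 were lost without any one array. Each sequence is the 250 bases before the gene's start in RefSeq (GRCm38.p6), 5′ to 3′ on the gene's strand. For Atp2b1 only the window farther upstream is given. Capitals mark matches to 5 short promoter motifs searched on both strands. The GC box was searched as GGGCGG and the CCAAT box by its name. The TATA box was searched as TATAAA, the core of the cyclic AMP response element as TGACG, and the site read by GATA factors as GATAA. Slc8a1 lies at chr17:81738388-81738637 on the minus strand, Atp2a1 at chr7:126463074-126463323 on the minus strand and Atp2b1 at chr10:98914392-98914641 on the plus strand.
Slc8a1: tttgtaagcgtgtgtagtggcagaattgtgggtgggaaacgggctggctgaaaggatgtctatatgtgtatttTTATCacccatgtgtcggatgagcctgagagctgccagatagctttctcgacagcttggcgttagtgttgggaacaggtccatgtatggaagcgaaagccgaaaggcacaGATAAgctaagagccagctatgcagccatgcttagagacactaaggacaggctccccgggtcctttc
Atp2a1: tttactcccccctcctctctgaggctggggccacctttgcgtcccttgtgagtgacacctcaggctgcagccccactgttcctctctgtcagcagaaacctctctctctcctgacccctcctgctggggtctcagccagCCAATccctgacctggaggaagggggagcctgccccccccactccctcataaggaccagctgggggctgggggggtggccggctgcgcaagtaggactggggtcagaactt
Atp2b1: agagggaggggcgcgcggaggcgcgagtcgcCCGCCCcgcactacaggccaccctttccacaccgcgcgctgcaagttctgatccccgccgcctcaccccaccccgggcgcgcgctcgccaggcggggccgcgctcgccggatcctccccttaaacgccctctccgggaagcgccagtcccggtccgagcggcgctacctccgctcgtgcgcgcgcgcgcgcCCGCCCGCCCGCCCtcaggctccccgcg

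The 3 windows share none of these motifs. Slc8a1 holds 2 GATAA matches, at 67 and 177 bases before the start, in a window of 50.4% GC. Atp2a1 holds 1 CCAAT match at 111 bases, and Atp2b1 holds 4 GGGCGG matches, 3 of which overlap by their ends between 20 and 28 bases before the start. The Atp2a1 window has 64.0% GC and the Atp2b1 window 78.4%, beside 53.2% over all 32851 RefSeq windows of this length. GATAA occurs in 22.6% of those windows, CCAAT in 33.8%, GGGCGG in 32.7%, TGACG in 17.8% and TATAAA in 12.4%. A match is a description of letters and no binding site.

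Slc8a1 codes for NCX1, the exchanger of heart muscle that is also widespread in brain. In FL cells against untransfected cells its log2 ratios were 0.07, 0.12 and -0.05, and in DTA cells -0.03, 0.00 and 0.03. The ratios lie on both sides of 0 in both groups, and the groups overlap. The mean was 0.05 (SD 0.09, n = 3) with FL and 0.00 (SD 0.03, n = 3) with DTA, with limma adjusted p-values of 0.284 and 0.968. Leaving out FL replicate 3, the only FL array below 0, gave 0.10 and a limma adjusted p of 0.0231.

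On the arrays against empty vector Slc8a1 had -0.24, -0.16 and -0.14, below 0 on each. The mean was -0.18 (SD 0.05, n = 3, limma adjusted p = 0.0102, 95% interval -0.25 to -0.10). It averages 8 features that did not move alike. The feature annotated to BC060264 had -0.80, -0.89 and -0.57, with a mean of -0.75 or 1.69-fold lower in FL cells. One feature annotated to NM_011406, the RefSeq transcript of the gene, had -0.58, -0.48 and -0.48, with a mean of -0.51 or 1.43-fold lower. Both sit well below 0 on all 3 arrays, with limma adjusted p-values of 0.00558 and 0.00268 over all features. One feature annotated to AF108396 was called at -0.09 (limma adjusted p = 0.0311). The other 5 features had means between -0.06 and 0.03, and none was called. Among those 5 is a second feature annotated to NM_011406, with -0.04, 0.005 and -0.003, so features of one accession differed by more than their arrays did.

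Of its 8 features 3 were thus called, where 64.1% of all features were. Taking the median over the 8 features on each array gave -0.06 and a limma adjusted p of 0.116, which ends the call. Averaging only the accessions that both platforms hold, a choice made after seeing the data, gave -0.43 for the same comparison (limma adjusted p = 0.00286). The features with these accessions on the 6 arrays showed no such drop: the BC060264 feature had means of 0.06 with FL and 0.05 with DTA, and the NM_011406 feature 0.04 and -0.05. Probe sequences were not used here, so whether features of one accession share a probe between platforms was not tested. The range of 0.78 between the Slc8a1 features was larger than that of 55.6% of the 9 genes with 8 features.

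**Figure D2:**
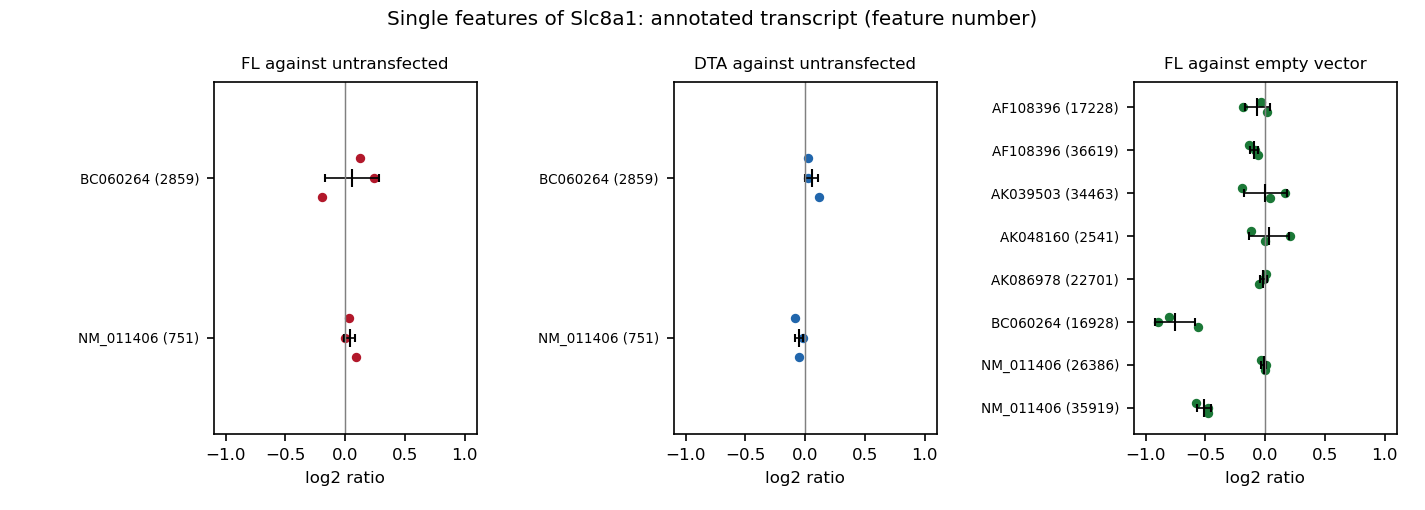
Log2 ratios of the single Slc8a1 features, named by annotated transcript and feature number, one point per array with mean and SD of 3 arrays, in FL against untransfected, DTA against untransfected and FL against empty vector. Both features on the 6 arrays lie between -0.19 and 0.24, while against empty vector 2 of 8 features lie near -0.75 and -0.51 and the other 6 between -0.09 and 0.03.

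The genes with ratios closest to Slc8a1 over the 9 arrays, among 15735 genes on both platforms, were Atp8a2, Dppa5a, Adam5, Zyx and Slc39a13. Their Euclidean distances were 0.13, 0.15, 0.15, 0.16 and 0.16 on the log2 scale, against a median of 0.79 over all genes. Atp8a2, a lipid flippase of neurons, had means of 0.07, -0.01 and -0.15 in the 3 comparisons. This likeness is a description, since Slc8a1 itself was close to 0 on most arrays.

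Slc8a2 codes for NCX2, an exchanger found mainly in brain. It had 0.00, -0.08 and 0.03 in FL cells and 0.21, 0.14 and 0.16 in DTA cells against untransfected cells. All DTA arrays lie above all FL arrays, a separation whose share over all genes was not counted. The mean was -0.01 (SD 0.06, n = 3, limma adjusted p = 0.658) with FL and 0.17 (SD 0.03, n = 3, limma adjusted p = 0.00246) with DTA, which is 1.12-fold higher. Without DTA replicate 3 the DTA value was 0.17 with a limma adjusted p of 0.0157. Against empty vector FL cells had -0.19, -0.12 and -0.10, a mean of -0.14 (SD 0.05, n = 3, limma adjusted p = 0.0165), and without replicate 2 the adjusted p was 0.0688.

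Slc8a3 codes for NCX3, known from brain and skeletal muscle. Its ratios were -0.12, 0.01 and -0.36 with FL, -0.01, -0.02 and -0.18 with DTA, and -0.10, -0.09 and 0.02 with FL against empty vector. The FL arrays spread widely and no comparison was called, with limma adjusted p-values of 0.101, 0.410 and 0.20. Without FL replicate 2 the FL mean was -0.24 and passed with a limma adjusted p of 0.0391. Against empty vector its pair of features moved apart: the NM_080440 feature was lower at -0.23 and the BC052435 feature higher at 0.12, with limma adjusted p-values of 0.0252 and 0.0261. Their mean near 0 hides these opposite values.

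Atp2a1 codes for SERCA1. In FL cells against untransfected cells it had -0.40, -0.51 and -0.39, in DTA cells -0.39, -0.36 and -0.38, and in FL cells against empty vector -0.32, -0.44 and -0.56. Every array lies at or below -0.32, and the FL and DTA arrays are close together. The mean was -0.43 (SD 0.07, limma adjusted p = 6.56e-05) with FL, -0.38 (SD 0.01, limma adjusted p = 9.53e-05) with DTA and -0.44 (SD 0.12, limma adjusted p = 0.00647) with FL against empty vector, each with n = 3. These are 1.35-fold, 1.30-fold and 1.36-fold lower levels in CCAT-transfected cells. Both of its features on each platform were called lower, with means between -0.50 and -0.34. Under limma's test for a change of more than 1.2-fold the calls with FL and DTA held, and that against empty vector was lost (adjusted p = 0.185).

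Atp2a2 codes for SERCA2, the pump of heart muscle with a form found in nearly all cells. Its single feature had -0.40, 0.03 and -0.18 with FL and -0.13, -0.19 and -0.22 with DTA against untransfected cells. The means were -0.18 (SD 0.21) and -0.18 (SD 0.05), both n = 3, and neither was called in the shared fit (limma adjusted p = 0.0782 and 0.0726). Without FL replicate 2, the array at 0.03, the FL mean was -0.29 (limma adjusted p = 0.0115), and DTA passed with 0.0215. DTA also passed without FL replicate 1, at 0.0189, and when fitted alone, at 0.00505, so its side of the threshold depended on which FL arrays shared the fit. Against empty vector the mean of 4 features was 0.02 (limma adjusted p = 0.309), with the BC054531 feature at 0.26 and one NM_009722 feature at -0.17, both called, and the other 2 at 0.02 and -0.03.

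Atp2a3 codes for SERCA3. Its single feature had -0.03, -0.11 and -0.03 with FL and 0.00, 0.03 and 0.00 with DTA against untransfected cells, and -0.48, -0.38 and -0.44 with FL against empty vector. Only the last group stands clear of 0. Its mean there was -0.43 (SD 0.05, n = 3, limma adjusted p = 0.00225), the smallest adjusted p among the members in that comparison, and it passed the test for more than 1.2-fold (adjusted p = 0.0413). Against untransfected cells the means were -0.06 and 0.01, with limma adjusted p-values of 0.0812 and 0.694. Whether the FL comparisons differ was not tested, since the platforms were normalized separately.

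Atp2b1 codes for PMCA1. It had 0.40, 0.34 and 0.49 with FL and 0.36, 0.35 and 0.36 with DTA against untransfected cells, and 0.09, 0.04 and 0.05 with FL against empty vector. All 9 arrays lie above 0, and the 6 against untransfected cells lie well above the other 3, which were normalized separately. The mean was 0.41 (SD 0.07, n = 3, limma adjusted p = 8.73e-05) with FL and 0.36 (SD 0.01, n = 3, limma adjusted p = 1.30e-04) with DTA. Against empty vector it was 0.06 (SD 0.03, n = 3, limma adjusted p = 0.0471), a call lost when any one of the 3 arrays was left out (adjusted p from 0.114 to 0.152).

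The Atp2b1 values came from one feature of each platform more than from the others. The feature annotated to BI080417 had 0.79, 0.78 and 0.78 with FL and 0.74, 0.74 and 0.79 with DTA, 1.72-fold and 1.69-fold higher than in untransfected cells. The feature annotated to NM_026482 had 0.02, -0.09 and 0.19 with FL and -0.02, -0.04 and -0.07 with DTA, and was not called (limma adjusted p = 0.524 and 0.473). Its mean with DTA was below 0, against the direction of the gene. The gap between these features, 0.74 with FL and 0.80 with DTA, was larger than in 88.8% and 85.2% of the 1030 genes with 2 features. On the arrays against empty vector the BI080417 feature was again the highest, at 0.32, beside 0.14 and 0.02 for the NM_026482 features and -0.23 for the AK053569 feature.

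**Figure D3:**
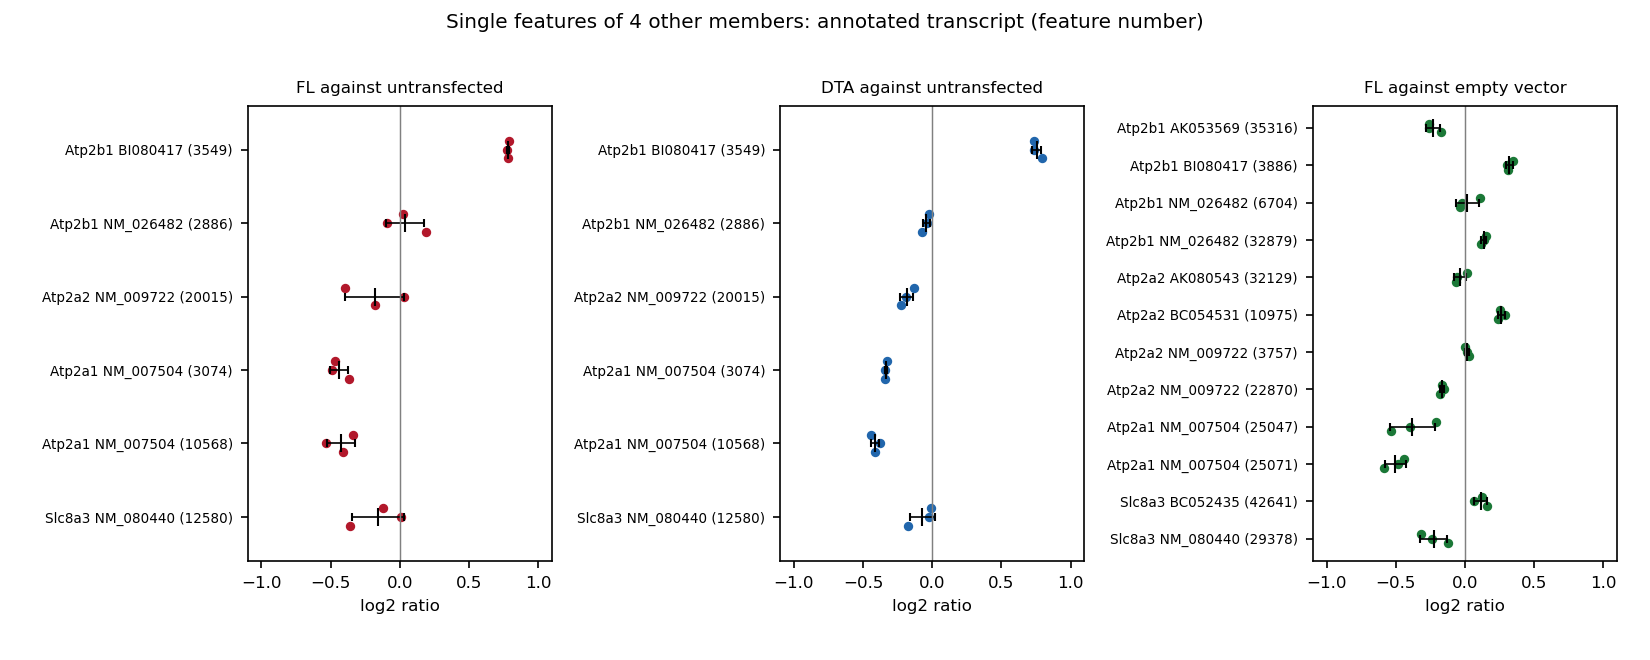
Log2 ratios of the single features of Atp2b1, Atp2a2, Atp2a1 and Slc8a3, named by annotated transcript and feature number, one point per array with mean and SD of 3 arrays, in the 3 comparisons. The BI080417 feature of Atp2b1 lies near 0.78 and 0.76 against untransfected cells while the NM_026482 feature lies near 0, and all Atp2a1 features lie below 0.

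Atp2b2 codes for PMCA2, a pump of neurons and of hair cells of the ear. It had 0.01, -0.02 and -0.16 with FL and 0.06, 0.10 and 0.16 with DTA against untransfected cells, and 0.12, 0.12 and 0.11 with FL against empty vector. The last group is tight, and its mean of 0.12 (SD 0.004, n = 3) was called at a limma adjusted p of 0.00573, a 1.09-fold difference. The FL mean of -0.06 was not called (limma adjusted p = 0.244), and the DTA mean of 0.11 missed the threshold at 0.0506. That DTA value passed with each array centred on its median, at 0.0373, and in 4 other settings.

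Atp2b3 codes for PMCA3, a pump largely confined to neurons. It had -0.17, -0.24 and -0.17 with FL and -0.07, -0.06 and -0.08 with DTA against untransfected cells, and -0.07, -0.10 and -0.17 with FL against empty vector. All 9 ratios were below 0, with FL lower than DTA on every array. How often either occurs over all genes was not counted. The mean was -0.19 (SD 0.04, n = 3, limma adjusted p = 5.15e-04) with FL and -0.07 (SD 0.01, n = 3, limma adjusted p = 0.0300) with DTA. Against empty vector it was -0.11 (SD 0.05, n = 3, limma adjusted p = 0.0282). The DTA call was lost without any one DTA array (adjusted p from 0.0919 to 0.134), and the empty-vector call without any one of its arrays (0.0537 to 0.103).

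The difference between FL and DTA sets the longer CCAT form against the shorter one, with the same kind of control RNA on one platform. A difference in the response to transfection cannot be told apart from that of the CCAT form. Of the 5 interferon genes 3 were called higher with FL: Ifit1 by 1.19, Isg15 by 0.64 and Mx2 by 0.56 (limma adjusted p = 0.00835, 0.00123 and 0.00926). The part of this in the values of the members was not tested. Slc8a2 and Atp2b3 were lower with FL than with DTA, 2 of 9 members where 34.2% of all genes were called, 18.2% higher and 16.1% lower. The difference was -0.18 for Slc8a2 (95% interval -0.28 to -0.08, limma adjusted p = 0.0181) and -0.12 for Atp2b3 (-0.20 to -0.05, limma adjusted p = 0.0290). Without any one DTA array the differences themselves moved little, lying from -0.196 to -0.1644 for Slc8a2 and from -0.1279 to -0.1178 for Atp2b3. Calls over all genes also fell then, from 5646 to between 3415 and 3731. Slc8a2 lost its call without any one DTA array (adjusted p from 0.0511 to 0.0642). Atp2b3 lost its call without any one DTA array or without FL replicate 2 (0.0676 to 0.104).

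The other 7 members were not called between FL and DTA, which does not show that the constructs acted alike. Atp2b2 had the largest of these differences, -0.16 (95% interval -0.30 to -0.03, limma adjusted p = 0.0709), with all FL arrays below all DTA arrays. Atp2a1 and Atp2a3 also had all FL arrays below all DTA arrays. How often this occurs over all genes was not counted, so such separation sets no member apart. For Slc8a1 the difference was 0.05 (-0.08 to 0.17), for Atp2a1 -0.06 (-0.16 to 0.04) and for Atp2b1 0.05 (-0.05 to 0.16). Intervals were widest for Slc8a3, -0.34 to 0.17, and Atp2a2, -0.26 to 0.27, the members with the most scattered FL arrays.

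**Figure D4:**
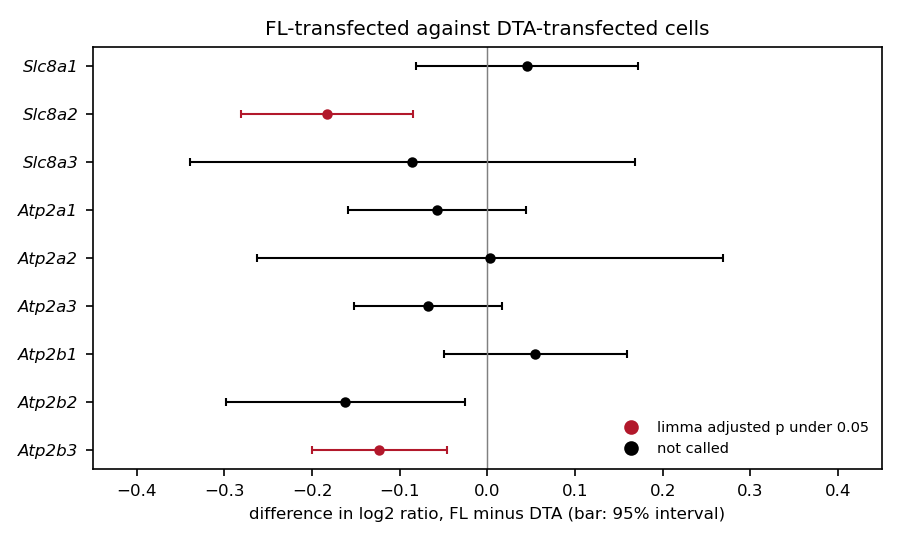
Difference in mean log2 ratio, FL minus DTA, for 9 members with 95% intervals, from 3 arrays of each construct. Slc8a2 and Atp2b3, in red, lie below 0 and were called, and Atp2b2 lies below 0 without a call.

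Around these transporters, 6 lists of other calcium and ion pump genes held 71 genes, of which 57 were measured on the 6 arrays and 58 on the 3. With FL against untransfected cells 35 were called, 19 higher and 16 lower, where 69.8% of all genes were called. DTA gave 41, 20 higher and 21 lower, where 71.8% of all genes were called. FL against empty vector gave 37, 17 higher and 20 lower, where 63.4% of all genes were called. FL minus DTA gave 23, 14 higher and 9 lower, where 34.2% of all genes were called. The counts against control RNA lie near or below those shares, and that for FL minus DTA lies above. Nothing particular to the lists is read from them. The median log2 ratios of these genes with FL, DTA and FL against empty vector were -0.018, -0.0056 and -0.0082, beside -0.0019, -0.0061 and -0.0048 over all genes.

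Regulators that bind the pumps moved in both directions. Against untransfected cells basigin and neuroplastin, known as auxiliary subunits of the plasma membrane pumps, had opposite signs. Bsg had 0.98, 0.95 and 0.94 with FL and 0.47, 0.48 and 0.46 with DTA against untransfected cells, higher on all 6 and higher with FL than with DTA by 0.49 (limma adjusted p = 5.36e-04). Nptn had -0.47, -0.44 and -0.38 with FL and -0.66, -0.63 and -0.68 with DTA, lower on all 6, and it too was higher with FL than with DTA, by 0.23 (limma adjusted p = 0.00568). Against empty vector both were higher, Bsg at 0.17 and Nptn at 0.09 (limma adjusted p = 0.00307 and 0.0119). Pln, phospholamban, the brake on SERCA2 in heart, had -0.57, -0.51 and -0.36 with FL against empty vector, a mean of -0.48 (SD 0.11, limma adjusted p = 0.00441), and was not called against untransfected cells at 0.06 and 0.01. Calm3, one of the calmodulin genes whose product activates plasma membrane pumps, rose by 0.55 with FL and 0.62 with DTA (limma adjusted p = 1.71e-05 and 8.63e-06), and Calm2 fell by 0.13 and 0.61. With FL against empty vector Calm3 had 0.06 and was not called, while Calm2 was called higher at 0.05 (limma adjusted p = 0.0448). Of 9 measured regulators 2 rose and 4 fell with FL, 3 rose and 4 fell with DTA, and 4 rose and 2 fell with FL against empty vector, beside 69.8%, 71.8% and 63.4% of all genes called.

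Among 17 measured genes of calcium stores and store-operated entry, 6 rose and 4 fell with FL, 7 rose and 5 fell with DTA, and 5 rose and 4 fell with FL against empty vector, where the shares called over all genes were 69.8%, 71.8% and 63.4%. Canx, calnexin, a chaperone of the reticulum that binds SERCA2, averaged 1.07 (SD 0.03, n = 3) with FL and 0.86 (SD 0.02, n = 3) with DTA against untransfected cells. It was 0.08 against empty vector. Ryr2, a release channel of the store, averaged 0.96 with FL and 0.75 with DTA, and -0.03 against empty vector, where it was not called (limma adjusted p = 0.236). Stim1, the calcium sensor of the store, rose by 0.54 and 0.66, with 0.10 against empty vector (limma adjusted p = 0.249). Casq2, a calcium-binding protein of the muscle store, fell by 0.23 and 0.50, with -0.09 against empty vector (limma adjusted p = 0.0973). Orai2, a pore subunit of store-operated entry, had the largest positive value of this list against empty vector, 0.35 (limma adjusted p = 0.00300). It had 0.17 with FL and 0.11 with DTA. Ryr1 was lower with FL than with DTA by 0.41 on the log2 scale, the largest negative difference of the list (limma adjusted p = 0.00138). Its means were 0.04 with FL, 0.45 with DTA and -0.20 with FL against empty vector, the last 2 called.

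Mitochondrial calcium genes, 9 measured, gave 5 higher and 2 lower with FL, 4 higher and 3 lower with DTA, and 3 higher and 2 lower with FL against empty vector. The same shares of all genes called, 69.8%, 71.8% and 63.4%, stand behind these counts and those of the other transporters that follow. Mcur1, a regulator of the mitochondrial uniporter, was higher in all 3 comparisons, at 0.86, 0.74 and 0.29. Vdac2, a channel of the outer membrane, was lower in all 3, at -0.38, -0.47 and -0.11. Others did not keep one direction. Micu3 had 0.49, 0.74 and -0.09 and Vdac1 had 0.43, -0.05 and 0.002, and neither was called against empty vector. Of the other calcium exchangers, 4 of 6 were called with FL, 4 of 6 with DTA and 5 of 7 with FL against empty vector. Slc8b1, the sodium-calcium exchanger of mitochondria, had 0.11, 0.24 and 0.08, and Tmem165, a Golgi exchanger, -0.23, -0.11 and -0.23, each called in all 3. The sodium-potassium pump, which maintains the gradient that the exchangers use, had 3 of 8 genes called with FL, 5 with DTA and 6 with FL against empty vector. Its modulator Fxyd2 was the lowest there, -0.54 against empty vector (limma adjusted p = 0.00551), beside -0.06 with FL and -0.11 with DTA. Atp1a4 was called in all 3 with unlike signs, at -0.15, 0.25 and -0.07. Related P-type pumps gave 5, 6 and 6 of 8. Atp13a4 was lower in all 3 comparisons, at -0.33, -0.29 and -0.42. By contrast Atp13a1 had 0.30, 0.52 and -0.04 and Atp7a had 0.35, 0.14 and -0.03, and neither was called against empty vector.

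Markers of other tissues were also called, and their counts are to be read beside the 69.8%, 71.8% and 63.4% of all genes called with FL, DTA and FL against empty vector. Atp2a1 and Pln are also muscle genes, and of 10 muscle and heart markers 3 were higher and 3 lower with FL, 3 higher and 4 lower with DTA, and 1 higher and 6 lower with FL against empty vector, where their range was -0.46 to 0.08. Glia markers were called in 2, 1 and 2 of 6 and fibroblast markers in 5, 3 and 3 of 7, in the order FL, DTA and FL against empty vector. Immune markers were called in 2 and 3 of 4 with FL and DTA, and against empty vector their limma adjusted p-values ran from 0.152 to 0.972. Markers of neuroblasts were called in 11, 9 and 7 of 11, with medians of -0.17, -0.04 and -0.04. The part of these markers in the values of the pumps was not tested.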

How the data were processed

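RNA of transfected and control Neuro2A cells was compared on 9 two-colour Agilent arrays, 3 a group. The deposited values are log10 ratios of the channels, made by the authors with the Rosetta Luminator system per the labels' design text. How background and dyes were corrected, and which channel was divided by which, is not given in the sources used here. A base of 10 was inferred from values capped at exactly -2 on the FL arrays. Ratios were converted to log2, features with 1 symbol in the platform annotation (18218 on the 6 arrays, 32042 on the 3) were kept, and features of a gene were averaged. No intensities or background flags were used, so the precision is limited by the number of arrays.

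Genes were tested with limma 3.58.1 (lmFit, eBayes) in R 4.3.3 against a ratio of 0, with Benjamini-Hochberg adjustment over all named genes and a threshold of 0.05. The 6 arrays shared one fit, which also gave FL minus DTA, and the 3 had their own. Promoters came from RefSeq, GRCm38.p6. The steps were also run on simulated data with independent noise and log2 shifts larger than the gene mean of any member. That run does not test calls at the sizes seen here. Python 3.11.15, pandas 2.3.3 and matplotlib 3.10.9 were used.

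The members, gene lists and tests were chosen with earlier results of these data known. Named were all members and the 5 genes nearest to Slc8a1, with symbols of clones, gene models and pseudogenes left out. List genes were taken from the up to 3 higher and 3 lower called genes of each list per comparison by size. Only some of these are named, and the choice among them followed no stated rule. Replicate numbers showed no clear pairing of FL with DTA arrays. Deviations of same-numbered arrays correlated at -0.04, 0.09 and -0.003, beside -0.08 to 0.07 for other numbers. Such weak values cannot exclude a pairing by design. Alternatives were array centring, quantile normalization, the median over features, each feature alone, removal of ratios of exactly 0, a filter on genes with no absolute log2 ratio of 0.2 or more, eBayes in its robust form, a fit per group, a replicate block, omission of each array in turn, a 2-fold minimum and limma's treat at 1.2-fold. The use of shared accessions for Slc8a1 was added after seeing the data.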

Additional observations from a re-analysis of the deposited data

Results flagged for a closer look

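Slc8a2 and Atp2b3 are listed because FL and DTA, set against the same kind of control RNA, differed in the test of the difference itself. They were 2 of 9 members, where 34.2% of all genes were called in this comparison, so the calls set the members apart from no other genes. The FL mean was lower than the DTA mean by a log2 difference of -0.1831 for Slc8a2, with -0.01 in FL cells and 0.17 in DTA cells (limma adjusted p = 0.0181). For Atp2b3 the difference was -0.1232, with -0.19 in FL cells and -0.07 in DTA cells (limma adjusted p = 0.0290). Both calls were lost without any one DTA array, with limma adjusted p from 0.0511 to 0.0642 for Slc8a2 and from 0.0832 to 0.104 for Atp2b3.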

How the results depend on the processing

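With 3 arrays a group and no intensities, small ratios were the limit: no member reached 2-fold, so that minimum left 0 members in each comparison although limma called 3, 4, 2 and 7 without it. For members singly, 432 values kept their direction and side of the threshold, 39 lost a call, 13 gained one and 16 turned direction. Part of these values could not turn. Leaving out an array of one construct does not change the mean of the other, and robust eBayes and treat change no mean. The 432 are therefore no measure of stability. Array centring, quantile normalization and robust eBayes gave 3 members with FL, 4 or 5 with DTA, 2 for FL minus DTA and 6 or 7 against empty vector.

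Limma's treat at 1.2-fold kept 2 members with DTA, 0 for FL minus DTA and 1 (Atp2a3) with FL against empty vector. It kept 13, 19, 3 and 1 list genes with FL, DTA, FL minus DTA and FL against empty vector, and 3389, 3970, 454 and 1011 of all genes. The 2-fold minimum kept 1, 0, 0 and 0 list genes and 268, 384, 69 and 50 genes. The filter on barely varying genes left 3 members, 19 list genes and 7629 genes against empty vector, since it removes most small ratios there.

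Leaving out single arrays gave 3 to 5 members, 29 to 32 list genes and 10347 to 11349 genes with FL, and 3 to 5, 36 to 46 and 10113 to 12566 with DTA. For FL minus DTA these ranges were 0 to 2, 13 to 22 and 3415 to 5836, and against empty vector 4 to 5, 20 to 24 and 8400 to 9788. FL gave 5 members without FL replicate 2. FL minus DTA gave 0 members without any one DTA array and 1 without FL replicate 2.

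With the replicate number as a block, a pairing that the check above could not decide, FL minus DTA called 1 member and 14 list genes. Slc8a2 stayed called (limma adjusted p = 0.0442) and Atp2b3 did not (0.0926).

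Directions turned as follows. With single arrays left out, Slc8a2 with FL ran from -0.0387 to 0.0164 (without FL replicate 2), Slc8a1 with DTA from -0.0129 (without DTA replicate 3) to 0.0179, and in FL minus DTA Slc8a3 from -0.1681 to 0.0156 (without FL replicate 3) and Atp2a2 from -0.1029 (without FL replicate 2) to 0.1106. Atp2a2 also turned under quantile normalization (-0.0039) and without DTA replicate 2 or 3 (-0.0020 and -0.0178). Slc8a1 with DTA was -0.0506 by its NM_011406 feature, and Atp2b1 with DTA was -0.0437 by its NM_026482 feature. Against empty vector single features turned Slc8a1 (0.0300 and 0.0017), Slc8a3 (0.1152), Atp2a2 (-0.1664 and -0.0348, and -0.0097 as the median over features) and Atp2b1 (-0.2293). Atp2b1 against empty vector lost its call with the median over features (limma adjusted p = 0.0661), with removal of ratios of 0 (0.0504) and with robust eBayes (0.05001). Atp2b3 with DTA lost its call with centred arrays (0.0647). Atp2b2 with DTA was called with centred arrays, removal of ratios of 0, robust eBayes, DTA fitted alone and without FL replicate 3 (0.0148 to 0.04997). The cause of these changes was not tested.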
